A study of Arabidopsis thaliana with 5 samples.

Results

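The genes described are JAZ1 to JAZ10 of Arabidopsis thaliana, which encode repressors of jasmonate signalling. They were found through the locus behind the accession of each non-control array probe, and all 10 had at least 1 probe, of 25433 genes with a probe in all. RNA came from cotyledons, the seed leaves, of 7-day-old seedlings raised in long days. The mutant line ckg gave 3 samples and the wild type Col-0 gave 2, which the design text calls biological replicates, with 1 Agilent 1-colour (Cy3) array per sample. The labels write the genotype of the mutant samples as "cgr" while the titles write ckg, and they describe neither the lesion nor the number of lines. The mutated gene was taken, from outside knowledge, to be AT5G50915, which encodes a transcription factor of the basic helix-loop-helix (bHLH) class named for its part in growth responses to cytokinin.

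JAZ proteins sit on bHLH factors such as MYC2 and recruit the adaptor NINJA and TOPLESS corepressors, which keeps jasmonate-responsive genes off. When jasmonoyl-isoleucine, the active form of the hormone, accumulates after wounding or touch, it joins JAZ proteins to the receptor F-box protein COI1, and the repressors are degraded. Most JAZ genes are themselves targets of MYC2, so their transcripts climb within a short time of a jasmonate pulse, together with enzymes that make and inactivate the hormone.

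Levels are given as log2 of the scanner software's processed signal minus the 75th percentile of the same array, so 0 is as bright as that percentile and 1 unit is a doubling. A probe's brightness depends on the probe, so levels are compared between arrays and not between genes. The share of spots well above background was 66.7% to 70.0% on 4 arrays and 52.4% on ckg replicate 3. The 9 JAZ genes tested were well above background on all 5 arrays, including ckg replicate 3, and their processed signals lay between 402 and 60960. The 3 probes of AT5G50915 were well above background on both Col-0 arrays and on 0 of 3 ckg arrays, and for the probe used ckg lay at least 29.6-fold below Col-0. The ckg arrays shared slide 2 and the Col-0 arrays slide 1, so a slide effect and a genotype effect cannot be told apart. Of the markers fixed for the tissue, 5 of 5 photosynthesis genes of cotyledon mesophyll, 2 of 5 root genes and 0 of 4 shoot apex genes passed the background filter. In such whole-organ RNA, a change in cell number and a change in RNA per cell cannot be told apart.

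The comparison of ckg with Col-0 asked whether JAZ transcript levels differed when the growth regulator gene was mutated. None of the 9 tested JAZ genes passed an adjusted p of 0.05 in limma, where 0 of 18123 genes passed (0%). AT5G50915 itself, with a fitted log2 difference of -5.91, had a limma adjusted p of 0.103. A gene that missed this threshold is therefore not shown to be unchanged. JAZ5 alone had an unadjusted p under 0.05, 1 of 9 members, while 18.1% of all genes did, 8.3% higher and 9.81% lower in ckg. The mean was higher in ckg for 6 of 9 members, against 48.6% of all genes, and lower for 3, against 51.3%. The median log2 difference was 0.14 over the members and -0.01 over all genes. The JAZ genes varied between the ckg samples, with replicate 1 high and replicate 2 low. By their median SD over the ckg arrays, genes listed under jasmonoyl-isoleucine turnover and jasmonate response markers varied more.

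**Figure D1:**
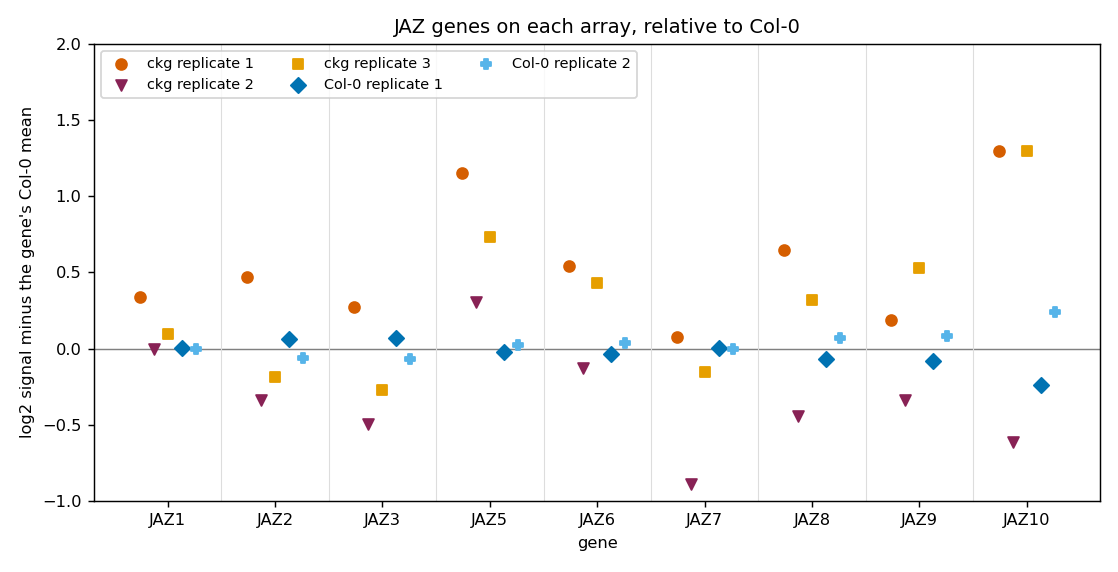
Log2 signal of the 9 tested JAZ genes on each array, minus the gene's own Col-0 mean (vertical axis, log2 units), by gene (horizontal axis); each point is 1 array. The purple triangles of ckg replicate 2 are the lowest ckg points in 9 of 9 genes, and the orange circles of ckg replicate 1 lie above both Col-0 points in 9 of 9.

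JAZ10 had the widest range. It is strongly induced by jasmonate and wounding, is widely used as a reporter of the response, and is alternatively spliced into forms that differ in their stability. Its level was -0.12, -2.03 and -0.12 on ckg arrays 1, 2 and 3, against -1.65 and -1.18 on the Col-0 arrays. Replicates 1 and 3 of ckg were thus above both Col-0 arrays and replicate 2 was below both. The mean was -0.753 ± 1.103 (SD, n = 3) in ckg and -1.41 ± 0.34 (SD, n = 2) in Col-0. The log2 difference was 0.66 ± 0.64 (SE) with a 95% interval of -0.97 to 2.29 (limma adjusted p = 0.610). The other JAZ10 probe, designed on another transcript of the gene, read -0.90, -2.82 and -0.95 in ckg, against -2.32 and -2.45 in Col-0. On both probes ckg replicates 1 and 3 read nearly alike, above Col-0, and replicate 2 read below it. Leaving out ckg replicate 2 took the difference of the first probe to 1.30 ± 0.20 (limma adjusted p = 0.265). Replicate 2 was the lowest ckg array, so leaving it out could only raise the difference, and nothing is read from that. Leaving out ckg replicate 1 or 3 took the difference of the first probe to 0.34 in each case.

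JAZ5, a close relative of JAZ6 that carries its own corepressor-binding motif, was the single member whose groups did not overlap. It was at 0.13, -0.71 and -0.28 on the ckg arrays, against -1.038 and -0.996 on the Col-0 arrays. Every ckg array lay above every Col-0 array, as for 19.5% of all genes tested; no JAZ gene had every ckg array below Col-0, which 22.7% of genes did, so groups were apart for 1 of 9 members and 42.2% of genes. The mean was -0.29 ± 0.42 (SD, n = 3) in ckg and -1.02 ± 0.03 (SD, n = 2) in Col-0, a log2 difference of 0.73 ± 0.26 (SE) or 1.66-fold, with a 95% interval of 0.08 to 1.38. The unadjusted p was 0.0338 and the limma adjusted p was 0.239. An exact permutation test over the 10 splits of the arrays gave p = 0.2, where 0.1 is the smallest these groups allow. The difference stayed between 0.52 and 0.94 in the 15 alternative settings tried, with adjusted p values of 0.192 to 0.655.

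JAZ6 read 2.88, 2.21 and 2.77 on the ckg arrays, against 2.31 and 2.37 on the Col-0 arrays. Replicates 1 and 3 of ckg lay above Col-0 and replicate 2 below it, the same layout as JAZ10 at a smaller scale. Its log2 difference was 0.28 ± 0.22 (SE), with a 95% interval of -0.29 to 0.85 (limma adjusted p = 0.532). A second JAZ6 probe gave 1.97, 1.91 and 2.43 in ckg, against 1.91 and 2.04 in Col-0, and there replicate 3 alone lay above both Col-0 arrays. JAZ6 and JAZ5 also share their surroundings in the genome, on chromosome 1: in the gene order of TAIR10.1, 6 coding genes separate JAZ6 from the lipoxygenase gene LOX4 and 2 separate JAZ5 from LOX3.

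JAZ1 and JAZ2 are a pair of canonical repressors; JAZ1 was among the first JAZ proteins shown to bind COI1 in a hormone-dependent way, and JAZ2 acts in guard cells. JAZ1 was the steadiest member, at 4.63, 4.29 and 4.39 on the ckg arrays, against 4.30 and 4.29 on the Col-0 arrays. Its ckg replicate 2 lay within the Col-0 values while the other ckg arrays lay above them. The log2 difference was 0.14 ± 0.14 (SE), and the 95% interval of -0.20 to 0.49 ended below a doubling (limma adjusted p = 0.606). JAZ2 was at 3.00, 2.20 and 2.35 in ckg, against 2.60 and 2.48 in Col-0, with replicate 1 above and replicates 2 and 3 below. Its difference of -0.02 ± 0.26 (95% interval -0.68 to 0.64) was smaller than its error.

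JAZ3 and JAZ9 belong with JAZ4 to another branch of the family; JAZ3 was identified through a jasmonate-insensitive mutant. JAZ3 was at -0.54, -1.31 and -1.09 on the ckg arrays, against -0.75 and -0.89 on the Col-0 arrays, a log2 difference of -0.16 ± 0.25 (SE; 95% interval -0.79 to 0.46). JAZ9 was at 3.84, 3.32 and 4.18 in ckg, against 3.57 and 3.74 in Col-0, a difference of 0.13 ± 0.27 (95% interval -0.55 to 0.80). In both genes ckg replicate 2 was below Col-0 and replicate 1 above, and they differed in replicate 3, which was low for JAZ3 and the highest array for JAZ9. JAZ4, a repressor linked to leaf senescence and cold responses, was not tested. Of its 2 probes, 1 was well above background on ckg replicate 2 alone, with a processed signal of 34.0, and the other on no array.

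JAZ7 and JAZ8 are short members that lack the usual degradation signal and recruit corepressors directly. JAZ7 had the lowest log2 difference of the family, -0.32 ± 0.30 (SE), with a 95% interval of -1.08 to 0.43 (limma adjusted p = 0.593). Its levels were 0.57, -0.39 and 0.34 on the ckg arrays, against 0.50 and 0.49 on the Col-0 arrays, so that value came mostly from ckg replicate 2. Without that replicate the JAZ7 difference was -0.04 ± 0.15. JAZ8 was at -1.61, -2.70 and -1.94 in ckg, against -2.33 and -2.19 in Col-0. Here replicates 1 and 3 lay above Col-0 and replicate 2 below, and the difference of 0.17 ± 0.33 (95% interval -0.67 to 1.01) turned to -0.06 without ckg replicate 1.

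On the probes used, the places of ckg replicates 1 and 2 were largely shared by the family, and that of replicate 3 was not. Replicate 2 was the lowest ckg array in 9 of 9 JAZ genes, as in 27.5% of all genes tested, and below both Col-0 arrays in 7 of 9, as in 43.2% of all genes. Replicate 1 was above both Col-0 arrays in 9 of 9, against 39% of all genes, and replicate 3 in 6 of 9, against 43.2%. After each gene was centred on its mean over the 5 arrays, the 9 JAZ genes averaged 0.45, -0.43 and 0.20 on ckg arrays 1, 2 and 3, against -0.14 and -0.07 on the Col-0 arrays. Replicate 2 remained the lowest ckg array for 9 of 9 members with quantile scaling, median scaling, normexp background correction, the mean of all probes and the authors' series table. In those settings the share of all genes ran from 25.1% with the series table to 37.1% with median scaling. Replicate 1 was above both Col-0 arrays in 8 of 9 members with normexp and with the series table, and in 9 of 9 with the others. These counts were chosen after the values had been seen, and JAZ genes share their arrays and a regulator, so they are given as a description with no test.

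The spread of each JAZ gene over the ckg arrays was larger than its spread over the Col-0 arrays in 9 of 9 members, against 74.7% of all genes; with 3 and 2 arrays such SDs are rough. The median SD over the ckg arrays was 0.43 log2 units for the JAZ genes and 0.17 for all genes. Over the Col-0 arrays it was 0.085 and 0.084. The lowest processed signal was 31.0 on ckg replicate 3, against 2.68 to 4.01 on the other arrays. Of 18123 genes tested, 15246 passed the background filter on every array, as the 9 JAZ genes did. The shares of all genes given here thus include dim genes whose SDs hold that difference between arrays. JAZ10 had an SD of 1.103 over the ckg arrays, and 1.07% of tested genes had a larger one. For JAZ8 (SD 0.56) and JAZ7 (0.50) the shares were 7.19% and 9.29%. JAZ9, JAZ2, JAZ5, JAZ3 and JAZ6 had SDs of 0.36 to 0.44, exceeded by 12.5% to 18.2% of genes. JAZ1, at 0.17, lay near the middle of all genes. Such a spread was not particular to the JAZ genes. The median SD over the ckg arrays was 0.75 for genes listed under jasmonoyl-isoleucine turnover, 0.86 for jasmonate response markers and 0.39 for jasmonate synthesis genes.

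**Figure D2:**
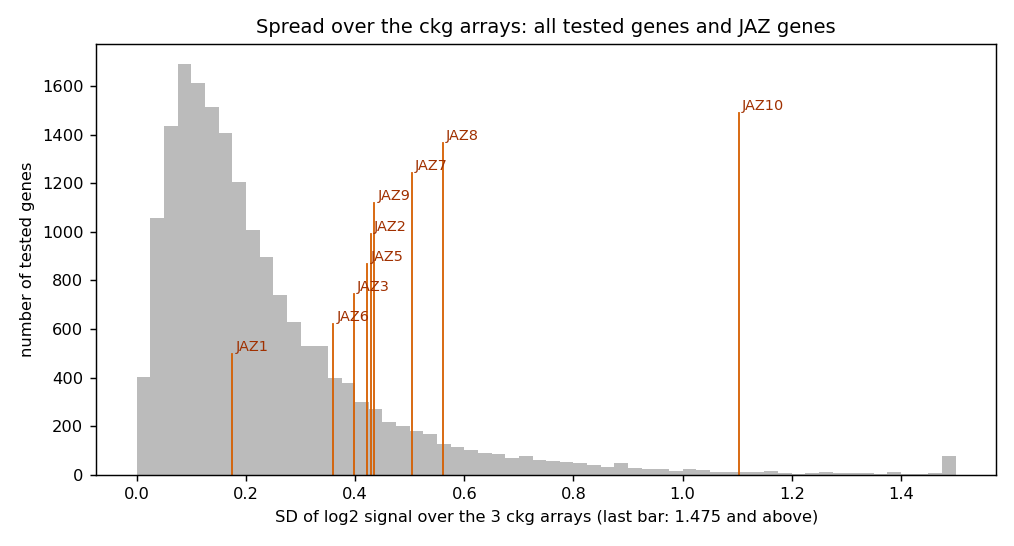
Histogram of the SD of log2 signal over the 3 ckg arrays (horizontal axis, log2 units) for all tested genes (vertical axis, number of genes), with the JAZ genes marked by lines whose heights have no meaning. JAZ1 lies near the middle of the histogram, 7 members lie between 0.36 and 0.56, and JAZ10 lies at 1.103.

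Replicates 1 and 2 of ckg lay on opposite sides of Col-0 for most of these genes, so the comparison was also read with each array left out. Replicate 2 was the lowest ckg array for every JAZ gene tested, so leaving it out could only raise their differences, and nothing is read from the counts that follow or from the shares of all genes beside them. Without ckg replicate 2, the mean was higher in ckg for 8 of 9 members, against 49.8% of all genes, and the median difference was 0.36. Unadjusted p was then under 0.05 for 4 members, JAZ10, JAZ5, JAZ6 and JAZ8, all higher in ckg, against 6.48% of all genes higher in ckg and 14.2% in either direction. Their log2 differences were 1.30 ± 0.20, 0.94 ± 0.19, 0.49 ± 0.13 and 0.48 ± 0.17 (SE), with limma adjusted p values from 0.265 to 0.348. Leaving out ckg replicate 1 in its place gave a median of 0.045, and leaving out ckg replicate 3 gave 0.10. The number of members with an unadjusted p under 0.05 was 1 of 9 without ckg replicate 1, against 17.5% of all genes, and 0 without ckg replicate 3, against 23.2%. Dropping Col-0 replicate 1 also gave 0 (8.98% of all genes), as did dropping Col-0 replicate 2 (9.52%).

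**Figure D3:**
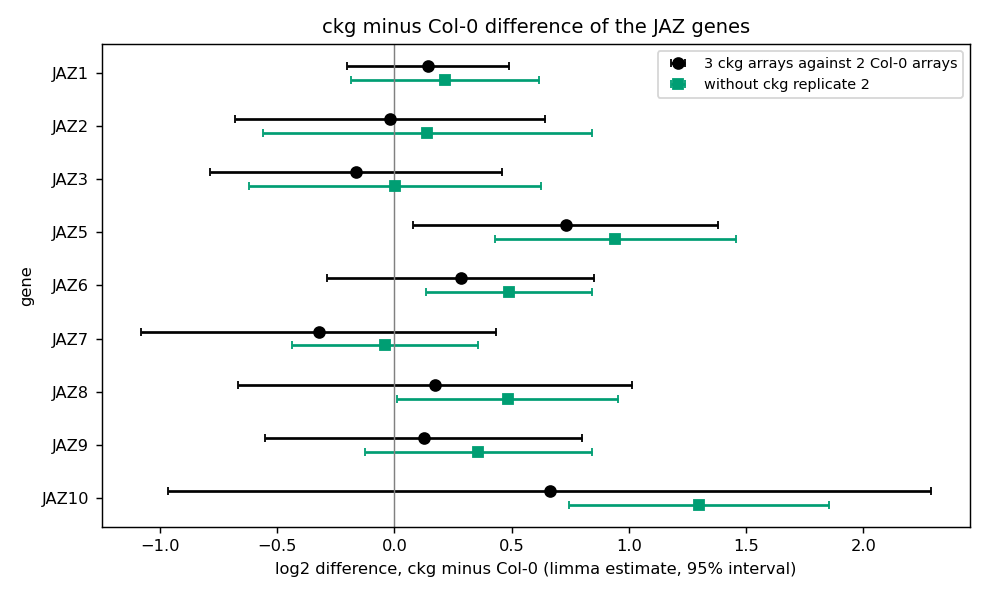
Log2 difference of ckg minus Col-0 for each tested JAZ gene (horizontal axis, limma estimate with its 95% interval) with all 5 arrays (black circles) and without ckg replicate 2 (green squares). With all arrays, 1 interval of 9, that of JAZ5, lies wholly above 0, and without ckg replicate 2, which was the lowest ckg array in each gene, those of JAZ5, JAZ6, JAZ8 and JAZ10 do.

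Among the remaining TIFY genes, named for the motif they share with the JAZ proteins, 0 of 6 had an unadjusted p under 0.05, against 18.1% of all genes. Their median SD over the ckg arrays was 0.12, with JAZ13 at 0.62 and PPD2 at 0.25 the most variable. JAZ11 was at -0.34, -0.29 and -0.46 in ckg, against -0.58 and -0.51 in Col-0, a log2 difference of 0.18 ± 0.11 (SE). JAZ12 gave -0.23 ± 0.11, with ckg below Col-0, but its second probe, which read -0.37 on Col-0 replicate 1 and 2.79 on Col-0 replicate 2, gave a difference of 1.42. JAZ13 (-0.06 ± 0.38), PPD1 (0.17 ± 0.12), PPD2 (-0.03 ± 0.17) and TIFY8 (0.08 ± 0.12) had 95% intervals that held 0; PPD1 and PPD2 restrain cell divisions in leaves. The sign for TIFY8 turned with normexp, with the mean of its probes and with the series table, and that for JAZ13, dim on ckg replicate 3, with normexp and without ckg replicate 2 or Col-0 replicate 1. PPD2 turned in 2 settings, among them the fit without ckg replicate 3.

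None of the tested partners of the JAZ proteins passed the adjusted threshold. COI1, the receptor, had a log2 difference of 0.14 ± 0.12 (SE), with a sign that turned under normexp and the series table. NINJA had 0.06 ± 0.14, with values from -0.04 without ckg replicate 3 to 0.55 with the mean of its probes. The other NINJA probe, which enters that mean, did not pass the background filter. Among the other subunits of the receptor ligase, ASK1 was at -0.34 ± 0.11, CUL1 at 0.25 ± 0.10 and ASK2 at -0.16 ± 0.11, the last of these positive under normexp and the series table. The corepressor TPL was at 0.28 ± 0.10 and TPR2 at 0.17 ± 0.13. The other TPL probe gave 0.175, and the other TPR2 probe went the opposite way, at -0.113. TPR3 gave 1.23 ± 0.47, which rested on Col-0 arrays at -1.77 and -3.38, against -1.35, -1.24 and -1.45 in ckg; its other probe gave -0.42. Of 10 genes in these lists, 3 had an unadjusted p under 0.05 (ASK1, TPL and TPR3), against 18.1% of all genes, and the smallest limma adjusted p was 0.216.

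MYC2, the main activator held by JAZ proteins, was at 5.01, 4.91 and 4.86 on the ckg arrays, against 4.65 and 4.78 on the Col-0 arrays. All ckg values were above both Col-0 values, and the log2 difference of 0.21 ± 0.11 (SE) did not pass (limma adjusted p = 0.368). Its homologue MYC3 was at 0.22 ± 0.12 and MYC4 at 0.22 ± 0.27, MYC4 being -0.01 without ckg replicate 3. JAM3, a bHLH repressor of jasmonate responses, was at -0.19 ± 0.10. It was positive with the mean of its probes, but the other JAM3 probe was well above background on no array. Of the 6 bHLH genes tested, 0 had an unadjusted p under 0.05, against 18.1% of all genes. MYC5 was not well above background on any array, and the JAM1 value lacks ckg replicate 1, whose spot was an outlier.

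Genes listed under jasmonoyl-isoleucine turnover also had ckg replicate 2 low, over a wider range than the JAZ genes. Several are induced by the hormone, and the list also holds enzymes, such as JOX2, JOX4 and JMT, that act on jasmonic acid. Of the 11 genes listed, 3 (JOX1, JOX3 and ST2A) did not pass the background filter. Replicate 2 was the lowest ckg array in 8 of 8 tested genes, against 27.5% of all genes. The tested genes had centred means of 0.64, -0.78 and 0.68 on the ckg arrays, against -0.41 and -0.13 on the Col-0 arrays. CYP94B1, which oxidises the active hormone, was at 0.65, -1.72 and 0.71 in ckg, against -1.30 and -1.40 in Col-0. Its log2 difference was 1.23 ± 0.79 (SE, limma adjusted p = 0.449). Without ckg replicate 2 the CYP94B1 difference was 2.03 ± 0.13 (limma adjusted p = 0.254). As replicate 2 was the lowest array of this gene, leaving it out could only raise the difference, and nothing is read from that. CYP94B3, a related oxidase, was at 0.38 ± 0.26, and ILL6, an amidohydrolase that releases jasmonic acid from the conjugate, at 0.57 ± 0.22 (limma adjusted p = 0.266). ILL6 was the 1 gene of 8 (12.5%) with an unadjusted p under 0.05, a share below the 18.1% of all genes. JOX4, a jasmonate hydroxylase named after its values were seen, ran from -4.65 on ckg replicate 2 to -0.26 on ckg replicate 3, against -3.61 and -2.69 in Col-0.

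Jasmonate synthesis genes had 1 of 11 (9.09%) with an unadjusted p under 0.05, below the 18.1% of all genes; it was AOC1, an allene oxide cyclase. AOC1 was at 3.78, 2.78 and 3.87 in ckg, against 2.42 and 2.21 in Col-0, with replicate 2 again the lowest ckg array. Its log2 difference was 1.16 ± 0.36 (SE; limma adjusted p = 0.205). JAR1, which joins jasmonic acid to isoleucine, differed by 0.34 ± 0.15, but its other probes gave -0.19 and -0.20 and the mean of its probes -0.015. AOC4, another allene oxide cyclase, differed by -0.32 ± 0.15. Replicate 2 was the lowest ckg array in 7 of the 11 synthesis genes, against 27.5% of all genes.

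Genes used as markers of the jasmonate response went both ways, 5 higher and 5 lower in ckg of 10 tested. ANAC019 and ANAC055, NAC transcription factors induced by jasmonate and abscisic acid, were above Col-0 on every ckg array, 2 of 10 genes, which is near the 19.5% of all genes. An unadjusted p under 0.05 was found for 3 of 10, against 18.1% of all genes. ANAC019 was at 0.44, -1.06 and -0.16 in ckg, against -2.57 and -1.95 in Col-0, a log2 difference of 2.00 ± 0.47 (SE; limma adjusted p = 0.155). ANAC055 differed by 1.05 ± 0.33 (limma adjusted p = 0.211). VSP1, a vegetative storage protein, was lower by a fitted -1.94 ± 0.69, but it was well above background on 1 of 3 ckg arrays. The mean of its probes gave -0.06, but took in probes that did not pass the background filter. VSP2, another storage protein gene named after its values were seen, differed by -1.97 ± 0.91 (limma adjusted p = 0.325) and by -1.03 on its other probe. It too was well above background on 1 of 3 ckg arrays. TAT3, a tyrosine aminotransferase named after its values were seen, was at -0.50, -4.68 and 0.60 in ckg, against -2.82 and -1.99 in Col-0. It shared the low ckg replicate 2 with the JAZ genes but was highest on replicate 3, and 0.0276% of tested genes had a larger SD over the ckg arrays.

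Genes induced within minutes by wounding, touch and handling shared a high ckg replicate 1 with the JAZ genes, but replicate 3 was their lowest ckg array on average. Of 18 tested, 0 had an unadjusted p under 0.05 (18.1% of all genes), 9 were higher and 9 lower in ckg, and the median log2 difference was -0.01. Their centred means were 0.16, -0.03 and -0.15 on the ckg arrays, against -0.00 and 0.02 on the Col-0 arrays. Replicate 1 was again the high array, above both Col-0 arrays in 13 of 18, against 39% of all genes. Replicate 2 was below both in 10 of 18, against 43.2% of all genes, and the lowest ckg array in 7, against 27.5%. Replicate 3 was below both in 13 of 18, against 41.9% of all genes. The 3 with the smallest p were CML23, a calmodulin-like protein (0.42 ± 0.18), ERF104, an ethylene response factor (0.38 ± 0.23), and ORA47, a jasmonate-induced regulator of hormone synthesis (-0.40 ± 0.25). The ERF104 value rested on the Col-0 arrays: dropping Col-0 replicate 1 gave 0.705, while dropping Col-0 replicate 2 gave 0.055. The part of handling in the spread of the JAZ genes was not tested.

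**Figure D4:**
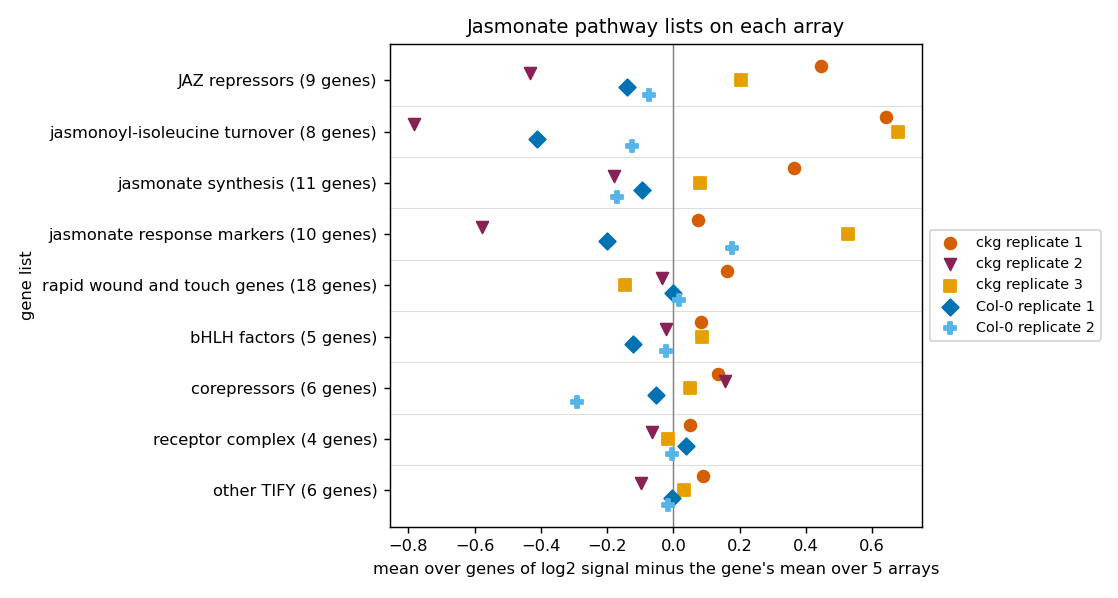
Mean over the genes of each list of log2 signal minus the gene's own mean over the 5 arrays (horizontal axis, log2 units), by list (vertical axis, number of genes in brackets); each point is 1 array. JAZ and turnover genes have ckg replicate 2 (purple triangles) at the left, at -0.43 and -0.78, and ckg replicates 1 and 3 at the right, while rapid wound and touch genes lie between -0.15 and 0.16.

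The genes whose centred values came closest to those of JAZ10 over the 5 arrays were sought by root mean square distance. The 5 nearest were AT1G74010 (0.12 log2 units), AT1G36640 (0.14), RD20 (0.15), AT5G44575 (0.19) and AT5G13210 (0.22). RD20 encodes a caleosin induced by dehydration and abscisic acid; it was at -1.02, -2.50 and -0.87 in ckg, against -2.49 and -1.96 in Col-0. AT5G13210 is the direct neighbour of JAZ10 on chromosome 5, with 0 coding genes between them in TAIR10.1. It was at -1.20, -2.69 and -1.23 in ckg, against -2.72 and -2.53 in Col-0. AT1G74010 and AT1G36640 were not well above background on every array. Of the JAZ genes, 7 of 10 lie on chromosome 1 and 1 each on chromosomes 2, 3 and 5.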

How the data were processed

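Per the file headers, Agilent Feature Extraction 10.7.1.1 made the deposited processed intensity of each spot, after background subtraction and spatial detrending, with no scaling between arrays. Flags of 0 or 1 per spot and raw median intensity were also deposited. The series table that the authors deposited gives log2 values of unstated normalisation (equal medians of 8.41, ranks equal to raw median intensity) that were not centred per gene.

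Log2 processed intensity minus the array's 75th percentile was used; outlier spots were left out and no spot was saturated (0). Accessions of 34358 of 43603 non-control probes matched a TAIR10.1 locus. No coordinates are given, since the array design names an older genome build. The probe with the highest mean signal stood for a gene, tested where well above background on every array of 1 group (18123 genes). limma 3.58.1 in R 4.3.3 (lmFit and eBayes, two-sided) fitted ckg minus Col-0 over 5 arrays, with Benjamini-Hochberg adjustment; the script was tested on simulated data. Errors are SE; 5 arrays limit precision.

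Members and lists were chosen with earlier results of these data known. The naming rule took the JAZ and TIFY genes, COI1, NINJA, MYC2 to MYC4, AT5G50915, the 3 smallest p per other pathway list, and the 5 profiles nearest to the most variable JAZ gene. Marker genes of tissues are given as counts. Normexp used median signals, since mean signals were not in the columns used here.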

Additional observations from a re-analysis of the deposited data

How the results depend on the processing

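Over the alternatives run, 0 JAZ members passed the threshold in any, an adjusted p of 0.10 included. Over all genes the count of 0 became 3 with normexp, 1 with median scaling, 3 with a mean-variance trend, 3 with the series table and 130 at a threshold of 0.10, and it was 0 to 8 with single arrays dropped. Dropping single arrays gave 5 to 8 JAZ genes higher in ckg and median differences of 0.045 to 0.357. With other background corrections, scalings and value sources the number stayed at 6 of 9, and the median lay between 0.075 and 0.142. With dim probes kept, JAZ4 joined the list, 7 of 10 were higher and the median was 0.158, while the median of all genes moved to 0.124. No JAZ gene turned sign under another scaling, normexp or the series table; JAZ2, JAZ3, JAZ8 and JAZ9 did when certain arrays were left out, and JAZ2 and JAZ9 with the replicate block. The labels pair no samples by number. With the replicate number as a block, to which ckg replicate 3 adds nothing, 6 of 9 members were higher, the median was 0.103 and 0 genes passed; replicate 1 minus replicate 2 correlated at -0.121 between the groups (Pearson r over 17910 genes; genes are no independent replicates). Leaving out a Col-0 array assumes that the lone array varies like the ckg arrays. The genes near background, JAZ4, JAZ13, VSP1 and VSP2, are limited by signal, above all on ckg replicate 3.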
